A study of Mus musculus with 4 samples.

Results

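The Iroquois genes Irx1 to Irx5, the T-box genes Tbx2 and Tbx3, the muscle segment homeobox genes Msx1 and Msx2, and Pthlh are 10 developmental genes that pattern the mammary gland or mark its epithelium. They were followed by gene symbol through the FPKM (fragments per kilobase of transcript, scaled to the mapped fragments of a library) tables of 4 primary mouse mammary tumors. All 10 genes were found among the 23746 gene rows, and all 10 were among the 12752 genes with 1 FPKM or more in 2 or more tumors. The group of genes was chosen by values that included the genotype contrast itself, so their genotype differences are given as a description with a standard error and without a p-value. Tumors 26043 and 26044 came from WapCre;Rank;Brca1;p53 triple-mutant females, and tumors 26048 and 26050 from WapCre;Brca1;p53 double-mutant females. The genotypes share the WapCre transgene and the conditional Brca1 and p53 alleles and differ in the conditional allele of Rank, the receptor of RANK ligand. By the methods of the study the Cre line acts in luminal and in basal mammary epithelium and needs no pregnancy, and whole tumors also hold stromal and immune cells. PolyA RNA was sequenced, and the age at collection and the grade of each sequenced tumor were not given. Across its cohorts the study describes high-grade tumors in double-mutant females alone and intermediate-grade tumors in both genotypes. Grade may thus differ between the sequenced genotypes and cannot be separated from them. The study describes the triple-mutant females as littermates of the double-mutant ones, but which tumors share a litter is not given. Separate animals are not stated for the tumors either, so the spread within a genotype covers these samples alone.

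Iroquois proteins are TALE-class homeodomain transcription factors whose genes lie in clusters of neighbours, and in many epithelia they mark domains along an axis. Tbx2 and Tbx3 are closely related T-box repressors. Tbx3 is required for the earliest mammary placode, and loss of a human copy causes ulnar-mammary syndrome. Msx1 and Msx2 are homeodomain repressors induced by BMP signals in bud epithelium and mesenchyme. Pthlh encodes parathyroid hormone-related protein, a ligand made by the bud epithelium that acts through Pth1r on the underlying mesenchyme and is also a secreted product of many carcinomas.

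Between 12150 and 12681 genes reached 1 FPKM in a tumor, and the Cufflinks confidence interval of a gene reached a median of 8.35% to 8.78% to either side of its middle. Read totals are not known from these tables, so no counting floor can be given for a low value. Tnfrsf11a, which encodes RANK, had 2.07 and 0.962 FPKM in the triple-mutant and 10.6 and 11.9 FPKM in the double-mutant tumors, so it was lower where the labels place the Rank deletion. The genes mutated in both genotypes were still measured, Brca1 at 3.26 and 3.28 against 3.84 and 5.69 FPKM and Trp53 at 15.7 and 87.8 against 149.7 and 103 FPKM. Limma called 0% of the 12752 genes at an adjusted p of 0.05 (0 genes), while 1252 genes had an unadjusted p under 0.05. The count was 6 after quantile normalization, 5 without the variance trend and 1 with interval midpoints in place of FPKM.

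Promoter sequence from RefSeq (GRCm38.p6, the patch release of mm10) was at hand for 6 of the 10 genes: Irx2, Irx4, Irx3, Msx1, Msx2 and Pthlh. Irx2 and Irx4 are shown because they sit in the same cluster while Irx4 alone separated the genotypes, and Msx1 because its locus also carries an antisense RNA, while the windows of Irx3, Msx2 and Pthlh overlap annotated gene bodies and are not printed. Each line runs 5′ to 3′ on the coding strand over positions −250 to −51 from the RefSeq start, which is chr13:72628570-72628769 on the plus strand for Irx2, chr13:73260247-73260446 on the plus strand for Irx4 and chr5:37824636-37824835 on the minus strand for Msx1. The RefSeq start used for Irx2 lies upstream of the gene coordinates given for it below, while those of Irx4 and Msx1 match theirs. Capitals mark matches to GGGCGG (GC box), CCAAT and CANNTG (E-box) on either strand.
Irx2: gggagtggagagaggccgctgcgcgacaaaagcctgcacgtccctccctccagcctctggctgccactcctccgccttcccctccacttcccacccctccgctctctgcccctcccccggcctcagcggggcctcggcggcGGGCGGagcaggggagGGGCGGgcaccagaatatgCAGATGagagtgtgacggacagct
Irx4: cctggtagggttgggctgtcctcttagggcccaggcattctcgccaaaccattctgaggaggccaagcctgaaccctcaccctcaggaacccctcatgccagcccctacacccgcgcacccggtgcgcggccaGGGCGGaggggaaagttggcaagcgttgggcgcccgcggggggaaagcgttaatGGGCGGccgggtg
Msx1: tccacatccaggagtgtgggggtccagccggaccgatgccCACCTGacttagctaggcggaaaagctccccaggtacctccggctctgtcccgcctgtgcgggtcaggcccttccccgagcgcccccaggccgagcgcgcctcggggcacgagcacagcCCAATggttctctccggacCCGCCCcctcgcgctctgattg

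Irx2 and Irx4 each held 2 GC boxes, at −109 and −93 in Irx2 and at −117 and −63 in Irx4, and Irx2 also held the E-box CAGATG at −74. The Msx1 window held the E-box CACCTG at −210, CCAAT at −91 and the GC box on the reverse strand at −72. Any match to ACANNTGT would also count as CANNTG. Of 32851 RefSeq windows of the same length, 24.6% held GGGCGG, 28.4% CCAAT and 59.0% CANNTG. The windows were GC-rich, with 70.5% GC in Irx2, 67.5% in Irx4 and 69.5% in Msx1 against a median of 51.5% over all windows. None of the 6 windows held ACANNTGT (the Iroquois palindrome, in 5.38% of all windows), AGGTGTGA (the T-box core, 0.922%), TAATTG (the Msx homeodomain core, 6.11%), TATAAA (9.14%) or CTTTGA (the TCF/LEF core, 11.8%) on either strand. GC boxes were thus shared by Irx2, which was high in all 4 tumors, and Irx4, which was near 0 in the double-mutant tumors.

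On the FPKM scale, which is per transcript length, the 10 genes spread over a wide range of levels. Irx1 led with a mean over the 4 tumors of 174 ± 82.7 FPKM (SD, n = 4), above 95.5% of the tested genes, and Irx2 followed with 79.1 ± 31.7 FPKM (SD, n = 4), above 90.2%. Irx3 (32.8 ± 17.7 FPKM), Tbx2 (27.0 ± 32.5), Irx5 (20.7 ± 9.006), Irx4 (9.44 ± 11.7), Pthlh (5.97 ± 6.64) and Tbx3 (4.02 ± 6.03) came next (SD, n = 4 each). Msx1 with 1.65 ± 1.30 FPKM and Msx2 with 1.58 ± 1.71 FPKM (SD, n = 4 each) stood lowest, above 6.50% and 5.98% of the tested genes. The ranges over the 4 tumors overlapped for every neighbouring pair in this order. These ranges leave out that all genes were measured in the same tumors. Within each tumor Irx1 stood above Irx2, by 1.64 to 2.53 times. Of the 40 gene values, 22 lay outside their own Cufflinks interval. Irx1 was 1.63 to 1.94 times and Tbx2 1.47 to 1.91 times the interval midpoint, while Irx3 and Tbx3 lay within their intervals in all 4 tumors.

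**Figure D1:**
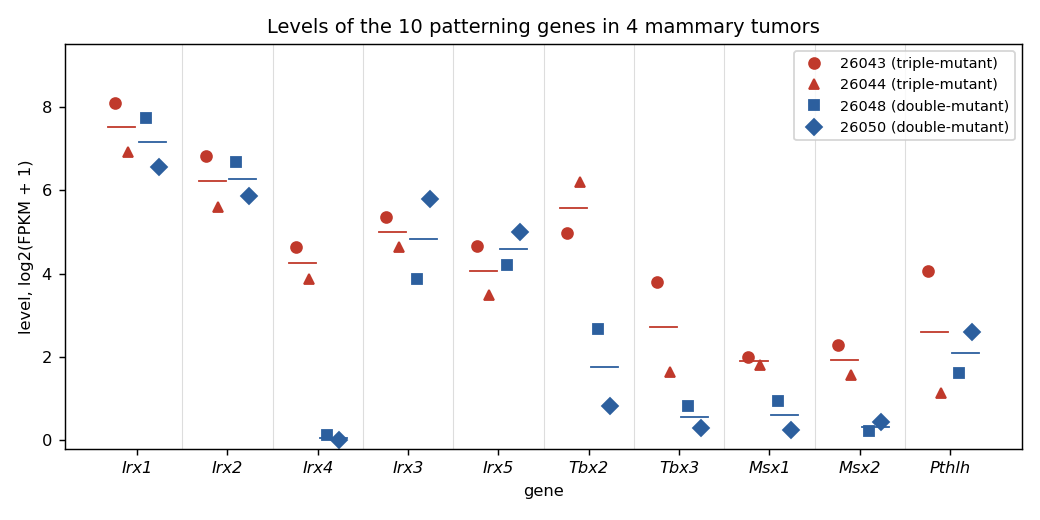
Level of each gene on the log2(FPKM + 1) axis, with 1 symbol per tumor (red for triple-mutant, blue for double-mutant) and a bar at the mean of the 2 tumors of a genotype. The red and blue symbols are apart for Irx4, Tbx2, Tbx3, Msx1 and Msx2, with the red ones higher, and intermingle for Irx1, Irx2, Irx3, Irx5 and Pthlh.

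The 3 Iroquois genes of chromosome 13 lie within 1.31 Mb and were not alike. Irx1 and Irx2 were high in every tumor, whereas Irx4 was measurable in the triple-mutant tumors and near 0 in the double-mutant tumors. Irx1 (chr13:71958232-71963723, minus strand) had 273 and 119.8 FPKM in triple-mutant tumors 26043 and 26044 and 210.3 and 93.2 FPKM in double-mutant tumors 26048 and 26050. Each genotype thus held 1 tumor with a high and 1 with a lower level, and the genotypes overlapped. The means were 196 ± 108 FPKM and 152 ± 82.8 FPKM (SD, n = 2 each), a difference of 0.37 (SE 0.60) in log2(FPKM + 1), triple-mutant minus double-mutant, the scale of every log2 difference given here.

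Irx2 (chr13:72628978-72634194, plus strand), 665 kb from Irx1, followed the same tumors. Its levels were 112 and 47.4 FPKM in the triple-mutant and 100.3 and 56.8 FPKM in the double-mutant tumors. The means of 79.7 ± 45.6 and 78.6 ± 30.7 FPKM (SD, n = 2 each) were almost the same, with a log2 difference of −0.05 (SE 0.54). Irx1 stood above Irx2 in all 4 tumors, by 2.44 and 2.53 times in the triple-mutant and by 2.096 and 1.64 times in the double-mutant tumors. The summed level of Irx1 and Irx2 was 385 and 167 FPKM in the triple-mutant tumors and 311 and 150.1 FPKM in the double-mutant tumors. Tumors 26043 and 26048, 1 of each genotype, were the high ones for both genes.

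Irx4 (chr13:73260497-73269620, plus strand), 626 kb beyond Irx2, is best known as the ventricular Iroquois factor of the heart. It had 24.1 and 13.6 FPKM in triple-mutant tumors 26043 and 26044, 0.0979 FPKM in double-mutant tumor 26048 and was listed at 0 in 26050. Both triple-mutant tumors thus lay far above both double-mutant tumors. The level of Irx4 was 0.0882 and 0.114 of that of Irx1 in the triple-mutant tumors and 0.000466 of it in tumor 26048. The log2 difference was 4.19 (SE 0.40), and since 1 double-mutant tumor is listed at 0 no ratio of means is given. With a pseudocount of 0.1 in place of 1 the difference became 7.02, so its size rests on the pseudocount while its sign does not. As the tumors are bulk tissue, fewer cells that express a gene and less RNA per cell cannot be told apart, here or for any gene below.

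The Iroquois genes of chromosome 8, Irx3 and Irx5, did not separate the genotypes. Irx3 (chr8:91798511-91801654, minus strand), whose regulatory elements lie partly in the introns of Fto, had 40.1 and 23.8 FPKM in the triple-mutant and 13.7 and 53.7 FPKM in the double-mutant tumors. Both its lowest and its highest level were in double-mutant tumors, and the log2 difference was 0.17 (SE 0.72). Irx5 (chr8:92357796-92361456, plus strand), 556 kb away, had 24.3 and 10.2 FPKM in the triple-mutant and 17.3 and 31.1 FPKM in the double-mutant tumors. Its highest level was again in tumor 26050, and the log2 difference was −0.53 (SE 0.54). Irx3 and Irx5 summed to 84.8 FPKM in tumor 26050 and 64.4 FPKM in 26043, against 33.9 FPKM in 26044 and 30.9 FPKM in 26048. Tumor 26043 was thus high for the genes of both chromosomes, 26048 for Irx1 and Irx2 alone and 26050 for Irx3 and Irx5 alone. Irx5 was 0.607, 0.428 and 0.578 of Irx3 in tumors 26043, 26044 and 26050 and 1.27 times Irx3 in 26048. Irx5 lay above its own Cufflinks interval in all 4 tumors (10.88 to 13.22 FPKM in 26048). Irx3 lay within its own (12.34 to 14.98 FPKM in 26048). The interval of Irx5 was centred lower than that of Irx3 in 26048, so the order of the genes in that tumor is uncertain. Summed over all 5 Iroquois genes, the level was 473 and 215 FPKM in the triple-mutant tumors and 342 and 235 FPKM in the double-mutant tumors, again with overlap.

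For each T-box gene the double-mutant tumors lay below the triple-mutant tumors, but the tumor with the highest level was not the same. Tbx2 (chr11:85832615-85841948, plus strand), a repressor of cell cycle inhibitors that is amplified in some human breast cancers, had 30.2 and 71.7 FPKM in tumors 26043 and 26044 and 5.39 and 0.779 FPKM in tumors 26048 and 26050. The means were 50.9 ± 29.4 FPKM and 3.08 ± 3.26 FPKM (SD, n = 2 each), a ratio of 16.5 and a log2 difference of 3.82 (SE 0.79). Tbx2 passed 1 FPKM in 3 of the 4 tumors.

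Tbx3 (chr5:119670669-119684601, plus strand), the placode gene, had 13.0 and 2.09 FPKM in the triple-mutant and 0.774 and 0.229 FPKM in the double-mutant tumors. Tumor 26043 alone carried most of its level, 6.21 times that of 26044. The means were 7.54 ± 7.70 FPKM and 0.501 ± 0.386 FPKM (SD, n = 2 each), a ratio of 15.04 and a log2 difference of 2.15 (SE 0.80). Tbx2 exceeded Tbx3 in every tumor, by 2.32 times in 26043, 34.3 times in 26044, 6.96 times in 26048 and 3.41 times in 26050. Without tumor 26043 the log2 difference of Tbx3 was 1.07, and with a pseudocount of 0.1 it was 3.32.

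Msx1 and Msx2 were low genes that also separated the genotypes. Msx1 (chr5:37820491-37824585, minus strand) had 2.97 and 2.51 FPKM in the triple-mutant and 0.935 and 0.199 FPKM in the double-mutant tumors. Of the 10 genes it differed least between the triple-mutant tumors, by 1.19 times. The means were 2.74 ± 0.328 FPKM and 0.567 ± 0.521 FPKM (SD, n = 2 each), a ratio of 4.83 and a log2 difference of 1.29 (SE 0.37). Msx2 (chr13:53466881-53472780, minus strand) had 3.86 and 1.95 FPKM in the triple-mutant and 0.164 and 0.359 FPKM in the double-mutant tumors. Again both triple-mutant tumors were the higher ones. Its means were 2.91 ± 1.35 FPKM and 0.262 ± 0.137 FPKM (SD, n = 2 each), a ratio of 11.1 and a log2 difference of 1.59 (SE 0.38). Msx2 exceeded Msx1 in tumors 26043 and 26050, by 1.30 and 1.80 times, and was 0.780 and 0.176 of it in 26044 and 26048. In 26044 Msx1 lay above its own Cufflinks interval (1.07 to 1.96 FPKM) and Msx2 within its own (1.84 to 2.95 FPKM). The interval of Msx2 was centred higher there, so the order of the genes in that tumor is uncertain. With a pseudocount of 0.1 the differences became 2.35 (SE 0.81) for Msx1 and 3.03 (SE 0.72) for Msx2, so their errors also rest on the pseudocount.

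Pthlh (chr6:147252110-147264085, minus strand) varied most within a genotype. It had 15.6 FPKM in triple-mutant tumor 26043 and 1.19 FPKM in triple-mutant tumor 26044, with double-mutant tumors 26048 and 26050 between them at 2.06 and 5.01 FPKM. The highest and the lowest level of the ligand were thus both in triple-mutant tumors, which differed 13.1-fold, a larger within-pair log2 difference than 97.5% of the tested genes had. The means were 8.41 ± 10.2 FPKM and 3.53 ± 2.08 FPKM (SD, n = 2 each), and the log2 difference of 0.49 (SE 1.06) was smaller than its error. Without tumor 26043 it was −0.97.

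In all, 5 of the 10 genes (Irx4, Tbx2, Tbx3, Msx1 and Msx2) had both triple-mutant tumors above both double-mutant tumors, 0 had the reverse, and 5 overlapped. Of all tested genes 21.3% had both triple-mutant and 22.9% both double-mutant tumors higher, and because the genes were selected on this contrast nothing is read from the comparison. Irx4, Tbx3, Msx1 and Msx2 reached 1 FPKM in triple-mutant tumors alone, so these 4 had to differ once they were tested. The median log2 difference was 0.89 over the 10 genes and −0.02 over all tested genes. The summed level of the 5 non-overlapping genes was 74.0 and 91.9 FPKM in the triple-mutant tumors and 7.36 and 1.57 FPKM in the double-mutant tumors, and that of all 10 genes was 539, 294, 351 and 241 FPKM in tumors 26043, 26044, 26048 and 26050.

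**Figure D2:**
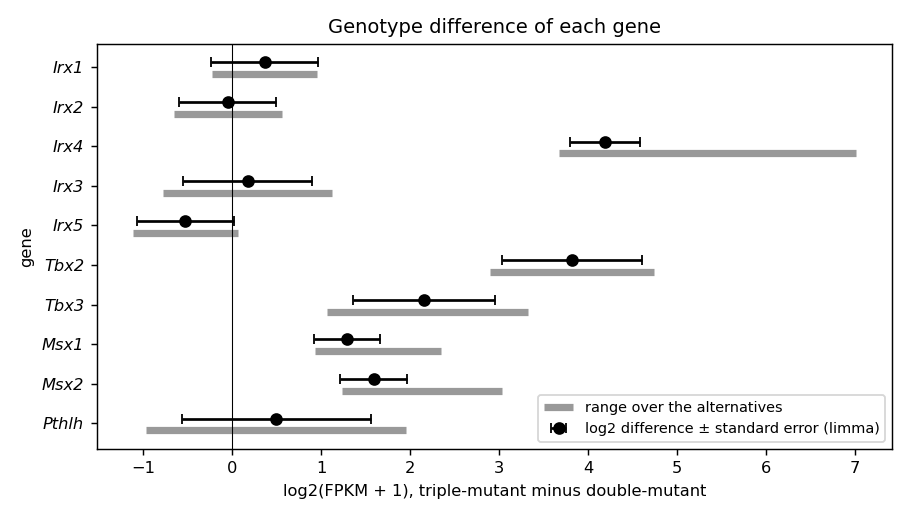
Difference of each gene between genotypes in log2(FPKM + 1), triple-mutant minus double-mutant, as a point with its limma standard error, above a grey bar for the range over the other settings tried, left-out tumors included. Irx4 (4.19), Tbx2 (3.82), Tbx3 (2.15), Msx2 (1.59) and Msx1 (1.29) stay above 0 over the whole bar, while the bars of the other 5 genes cross 0.

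Several of the genes varied between tumors of 1 genotype. Tumor 26043 exceeded 26044 for 9 of the 10 genes, with Tbx2 as the exception. The log2 differences within the triple-mutant pair were 1.18 for Irx1, 1.22 for Irx2, 1.18 for Irx5, 1.22 for Tbx2 and 2.18 for Tbx3, against a median of 0.45 over all tested genes. They were 0.78 for Irx4, 0.73 for Irx3, 0.72 for Msx2 and 2.92 for Pthlh, while Msx1, at 0.18, lay below the median. Within the double-mutant pair, tumor 26050 exceeded 26048 for Irx3, Irx5, Msx2 and Pthlh. The widest double-mutant differences were 1.90 for Irx3 and 1.84 for Tbx2, larger than in 97.5% and 97.3% of the tested genes, whose median was 0.36.

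Lineage markers differed between the tumors as well, not all of them by genotype. Of 8 tested basal and myoepithelial markers, 7 had both triple-mutant tumors higher. For this and each such count below, 21.3% of all tested genes had both triple-mutant and 22.9% both double-mutant tumors higher. The 9 markers of the list summed to 1754 and 1323 FPKM in the triple-mutant and 74.1 and 49.3 FPKM in the double-mutant tumors. The triple-mutant sums rest on different genes. Krt5, Krt14 and Krt17 had 596, 611 and 435 FPKM in 26043 but 114, 42.5 and 155 FPKM in 26044. Acta2 had 898 FPKM in 26044, against 64.8 FPKM in 26043 and 59.7 FPKM in double-mutant 26048. Luminal and basal markers of the labelled tissue were above 0 in all 4 tumors, but the defining basal keratin Krt5 was at 1.15 and 2.06 FPKM in the double-mutant tumors. Of 11 luminal markers 4 had both triple-mutant tumors higher (Esr1 and Pgr, at 1 FPKM in these tumors alone, among them) and 4 both double-mutant tumors, and their sum was 3020 and 452 FPKM in tumors 26043 and 26044 and 2342 and 2100.1 FPKM in 26048 and 26050. Esr1 was at 3.66 and 1.39 FPKM and Pgr at 4.45 and 1.06 FPKM in the triple-mutant tumors. By immunostaining the study could not detect either receptor protein in tumors of both genotypes. Irx1 and Irx2 were among the 9 of 10 genes that were higher in 26043 than in 26044. Every listed luminal marker, Epcam (347 and 25.7 FPKM against 516 and 390.1 FPKM) among them, was also higher in 26043, as were Krt5, Krt14 and Krt17. Irx1 was lowest in 26050 (93.2 FPKM), where Epcam was far above its level in 26044.

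Of 8 fibroblast markers 1 had both triple-mutant and 4 both double-mutant tumors higher, with sums of 241 and 138 FPKM against 946 and 458 FPKM. Immune markers (4 tested, 3 with both double-mutant tumors higher) summed to 28.7 and 19.5 FPKM against 49.1 and 34.2 FPKM. The 4 tested endothelial markers overlapped, with sums of 25.4 and 78.1 against 43.8 and 24.7 FPKM. Of 5 adipocyte markers Fabp4 alone was tested and overlapped. The adipocyte sum ran from 7.58 FPKM in 26043 to 1390 FPKM in 26048, where Fabp4, Adipoq, Plin1 and Cidec were all highest. Skeletal muscle markers, none of which was tested, summed to 28.9 FPKM in 26050 and to 0.627 to 0.689 FPKM elsewhere. Of 3 Schwann cell markers 1 had both triple-mutant and 1 both double-mutant tumors higher, with sums of 11.0 to 44.7 FPKM. Of 3 tested skin keratinocyte markers Lor alone had both triple-mutant tumors higher, the list summed to 9.10 and 6.27 against 4.81 and 5.63 FPKM, and Krt2 was listed at 0 in all 4 tumors. The part of basal, luminal, stromal and muscle cell content in the levels of the 10 genes was not tested.

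The loci around the genes were compared to see whether whole regions shifted. Within 500 kb of the 10 genes lay 63 other genes, of which 37 were tested. Of these 7 had both triple-mutant and 6 both double-mutant tumors higher, 24 overlapped, and the median log2 difference was −0.0016, near that of all tested genes. Irx4 had no neighbour of its own size of difference. Its nearest tested neighbours were Ndufs6 (log2 difference 0.22, overlapping) and Mrpl36 (0.45, both triple-mutant tumors higher), a complex I subunit and a mitochondrial ribosomal protein, then Lpcat1 (−0.81, both double-mutant tumors higher) and Clptm1l (−0.20, overlapping).

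Beside Tbx2, Bcas3, 6556 bp away, had 14.0 and 24.3 FPKM in the triple-mutant and 9.31 and 6.52 FPKM in the double-mutant tumors, a log2 difference of 1.15 (SE 0.41). Bcas3 thus shared the order of the 4 tumors with Tbx2 at a smaller size. Ppm1d, 485543 bp away and outside the naming rule, chosen after its values were seen, had the same order with 7.14 and 8.72 FPKM against 6.51 and 5.27 FPKM (0.37, SE 0.32). Brip1 (−0.05) and Med13 (0.06) overlapped, and Ints2 (−0.41) had both double-mutant tumors higher. Beside Msx2, the gene of the Wnt5a receptor Ror2, 180771 bp away, had 10.3 and 16.4 FPKM against 1.21 and 0.438 FPKM, a log2 difference of 2.97 (SE 0.42). Sptlc1 (−0.10) lies between Ror2 and Msx2 and overlapped between genotypes, as did Nfil3 (0.40).

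The antisense RNA Msx1as overlaps Msx1 and had 4.58 and 4.23 FPKM in the triple-mutant and 1.92 and 0.863 FPKM in the double-mutant tumors, a log2 difference of 1.21 (SE 0.37). It was above Msx1 in each tumor and had the same order of tumors. The libraries were made with dUTP, which marks strand, but the strand setting given to Cufflinks is not stated in the sources used here, so reads of Msx1 and Msx1as cannot be told apart with certainty. The other tested neighbours of Msx1 named by the rule, Cytl1 (−0.20), Stk32b (−1.32) and Stx18 (−0.02), overlapped. Evc, a cilium gene 483609 bp away and outside the naming rule, chosen after its values were seen, had 10.7 and 12.2 FPKM in the triple-mutant and 5.47 and 3.55 FPKM in the double-mutant tumors, a log2 difference of 1.20 (SE 0.34) close to that of Msx1. Evc2, which lies between Evc and Msx1, overlapped (0.12). So did the remaining tested neighbours Nsg1 (0.47), Zbtb49 (0.06), Lyar (−0.41) and Tmem128 (0.08).

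Next to the overlapping genes, Gm20554, 413 bp from Irx2, had 5.99 and 2.30 FPKM against 9.10 and 3.37 FPKM and was highest in the same tumors, 26043 and 26048, as Irx2. The RNA 4933436C20Rik, 1675 bp from Irx5, had 4.82 and 9.05 FPKM against 3.52 and 11.7 FPKM and overlapped. Mmp2 (−1.17) and Lpcat2 (−1.83), farther along from Irx5, had both double-mutant tumors higher. Near Irx3, Fto had 18.9 to 23.5 FPKM in all tumors (−0.13, overlapping), and Rpgrip1l had a log2 difference of −0.38. Near Pthlh, Klhdc5 (0.58) had both triple-mutant and Ppfibp1 (−0.76) both double-mutant tumors higher, with Mrps35 (0.22) and Ccdc91 (−0.01) overlapping. Rbm19 (−0.0038, overlapping) was the sole tested neighbour of Tbx3, and Irx1 had none.

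**Figure D3:**
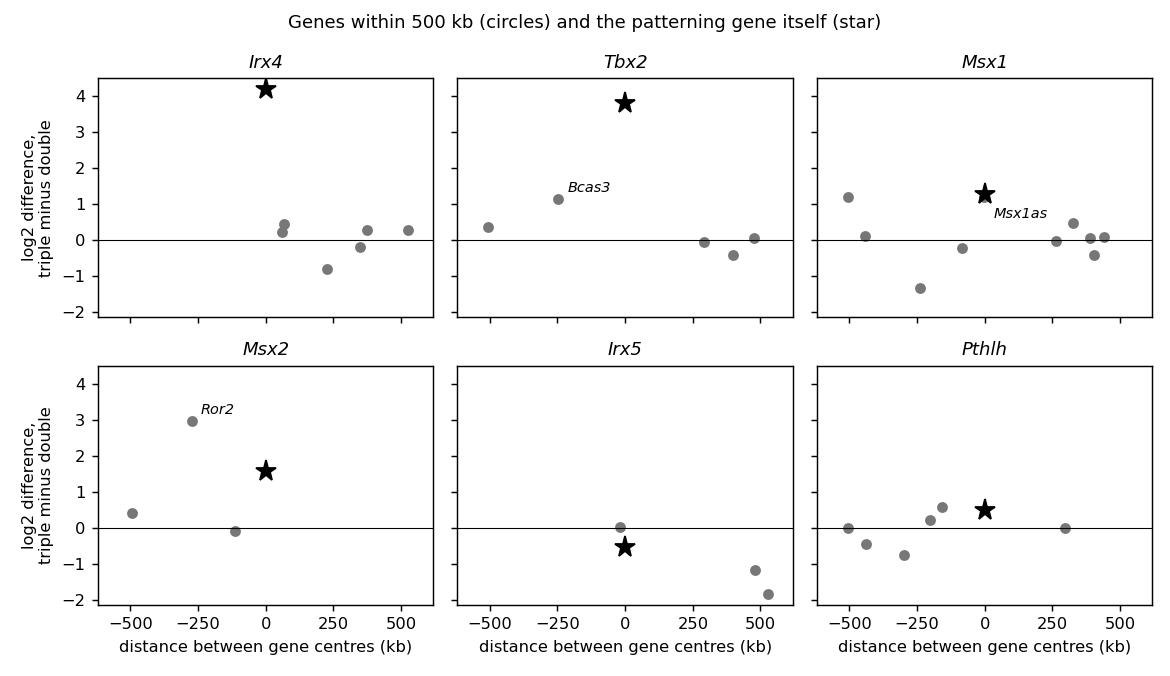
Log2 difference (triple-mutant minus double-mutant, log2(FPKM + 1)) of each tested gene within 500 kb, as circles against the distance in kb between gene centres, with the patterning gene as a star at 0, for Irx4, Tbx2, Msx1, Msx2, Irx5 and Pthlh. The stars of Irx4 (4.19) and Tbx2 (3.82) stand above all circles of their panels, while Ror2 (2.97) stands above Msx2 (1.59) and Msx1as (1.21) lies under the star of Msx1.

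Signals of the mammary bud and placode were read beside the 10 genes. Of the 37 genes of this list 19 were tested, 10 had both triple-mutant and 1 both double-mutant tumors higher, 8 overlapped and 0 passed an adjusted p of 0.05 in limma. The shares over all tested genes were 21.3% and 22.9%. Since the list was chosen with earlier results known, nothing is read from the comparison. Wnt6, Fgfr2, Sostdc1 and Bmp4 reached 1 FPKM in triple-mutant tumors alone, so these 4 had to differ once they were tested, and the count of 10 includes them. The median log2 difference of the 19 genes was 0.86, the value of Bmp4, and that of all tested genes −0.02. The largest non-overlapping differences were those of the ligand Wnt6 (22.7 and 43.2 against 0.235 and 0.298 FPKM), the Fgf10 receptor Fgfr2 (44.5 and 25.1 against 0.400 and 0.864 FPKM), and Sostdc1, a secreted Wnt and BMP antagonist (40.1 and 5.31 against 0.128 and 0.145 FPKM). Wnt6 and Fgfr2, at 4.68 (SE 0.42) and 4.42 (SE 0.42), had log2 differences of the size seen for Irx4. Sostdc1 (3.82, SE 0.94) and the ligand Wnt10a (3.52, SE 1.36) were, like Tbx3, far higher in tumor 26043 than in 26044. Bmp4, a known inducer of Msx genes, had 1.45 and 1.26 FPKM against 0.285 and 0.308 FPKM. Like Msx1 and Msx2 it passed the filter through the triple-mutant tumors alone, so nothing is read from their shared separation. Bmp2 of the same list was not tested and overlapped, with 1.24 and 0.480 against 0.920 and 0.127 FPKM. The repressor Trps1 was the gene with both double-mutant tumors higher, at −1.20. Fgf8, chosen after its values were seen, was listed at 0 in 3 tumors and at 99.6 FPKM in 26044.

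**Figure D4:**
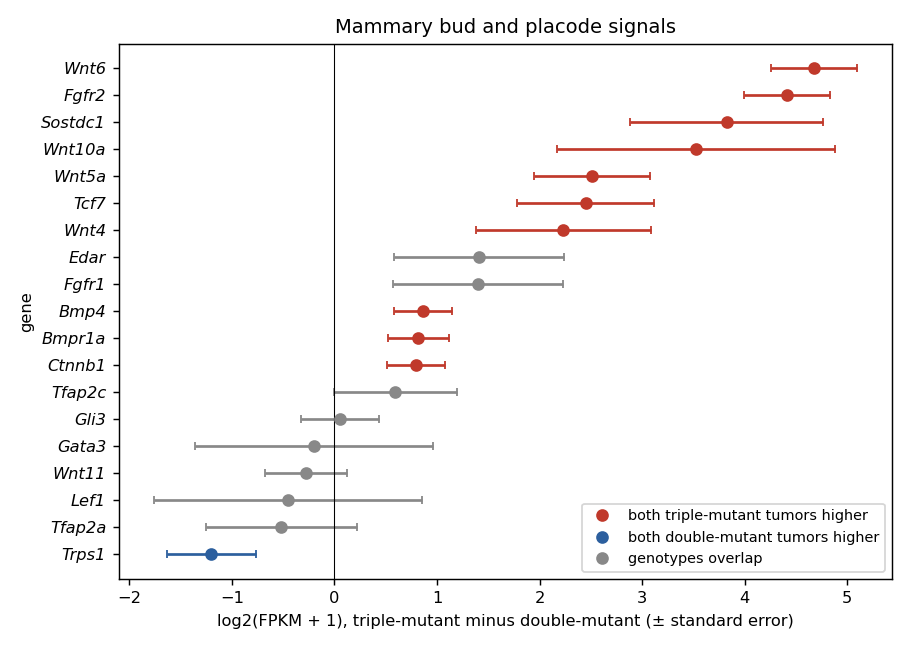
Log2 difference (triple-mutant minus double-mutant, log2(FPKM + 1)) with its standard error for the 19 tested bud and placode genes, coloured by whether both triple-mutant tumors (red, 10 genes), both double-mutant tumors (blue, 1 gene) or neither genotype (grey, 8 genes) stood higher. Wnt6 (4.68) and Fgfr2 (4.42) head the red genes and Trps1 (−1.20) is the blue one. Over all tested genes the shares were 21.3% for both triple-mutant and 22.9% for both double-mutant tumors higher.

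Of the other genes of the PTHrP pathway 4 of 9 were tested, 1 had both triple-mutant tumors higher and 3 overlapped. The receptor Pth1r had 1.52 and 6.25 FPKM in the triple-mutant and 2.72 and 0.781 FPKM in the double-mutant tumors. It was highest in 26044, the tumor with the lowest Pthlh. Gnas, which encodes the stimulatory G protein that Pth1r couples to, overlapped (0.23), and so did Tnfrsf11b (−0.94), which encodes the RANK ligand decoy osteoprotegerin. Bmpr1a, the BMP receptor that acts beside PTHrP in the bud mesenchyme, had 20.7 and 20.1 FPKM against 9.77 and 12.7 FPKM and was the sole tested gene of the list with both triple-mutant tumors higher. Tnfsf11, which encodes RANK ligand and was not tested, had 5.87 and 0.819 FPKM against 0.204 and 0.216 FPKM. Pth was listed at 0 in all tumors, and the median log2 difference of the 4 genes was 0.48.

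Of 24 paralogs outside the 10 genes 4 were tested, 2 higher in each genotype without overlap, with a median log2 difference of 0.74. None of the paralog, PTHrP or BMP feedback genes passed the adjusted p of 0.05 in limma. The homeobox genes Dlx3 (22.3 and 59.9 against 0.504 and 0.212 FPKM, 4.80, SE 0.56) and Dlx4 (1.86, SE 0.53), relatives of the Msx genes, had both triple-mutant tumors higher. Dlx3 and Dlx4 also reached 1 FPKM in triple-mutant tumors alone. They were higher in 26044 than in 26043, as Tbx2 was. The T-box gene Tbx15 went the other way from Tbx2 and Tbx3, with 2.78 and 0.665 FPKM against 26.3 and 8.05 FPKM (−2.65, SE 0.72), and Mga, a Max-binding T-box protein, had −0.39. Irx6, the third gene of the chromosome 8 cluster, had 0.0655 FPKM in 26043 and was listed at 0 in the others.

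Of 6 genes known as targets of Tbx2 or Tbx3 repression 5 were tested, 2 had both triple-mutant tumors higher, 3 overlapped and 0 passed an adjusted p of 0.05 in limma, with a median log2 difference of 0.71. Cdkn2a, which encodes the cell cycle inhibitors p16 and p19Arf, had 291 and 153 FPKM in the triple-mutant and 101 and 75.2 FPKM in the double-mutant tumors (1.26, SE 0.42). Its neighbour Cdkn2b (0.71) had the same order of genotypes. Cdh1 (−1.46), Cdkn1a (0.99) and Ndrg1 (0.21) overlapped. Every gene of the list, Cdkn2a among them, was higher in 26043 than in 26044, as Tbx3 was and Tbx2 was not. Of 9 BMP feedback genes 6 were tested, 3 had both triple-mutant and 1 both double-mutant tumors higher, and the median was 0.69. Id3 (185 and 172 against 19.8 and 5.37 FPKM, 3.96), Id1 (2.75) and Bambi (0.87) had both triple-mutant tumors higher, while Id2 (−1.61) had both double-mutant tumors higher. Smad6 (0.51) and Smad7 (0.29) overlapped. Since Msx1 and Msx2 passed the filter through the triple-mutant tumors alone, nothing is read from setting them beside these genes.

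For the 3 genes with the widest range over the tumors, the genes with the most similar profile were found by the root mean square (RMS) difference in log2(FPKM + 1), centred on the mean of the 4 tumors, over 11504 genes. Nearest to Tbx2 were Lgr6, a receptor of R-spondins (RMS 0.24), Chi3l1 (0.37) and Pdgfa (0.38), and 7 genes lay within 0.5. Lgr6 had 26.4 and 82.6 FPKM in the triple-mutant and 5.13 and 0.298 FPKM in the double-mutant tumors, near the levels of Tbx2 apart from 26050. Nearest to Irx4 were Dlk2 (0.20), Fgfr2 (0.22) and the hemidesmosome collagen gene Col17a1 (0.23), with 13 genes within 0.5. Nearest to Tbx3 were Wnt4, a ligand induced by progesterone in mammary epithelium (0.08), Ptpn13 (0.10) and Ptgds (0.14), with 60 genes within 0.5. Wnt4 had 19.7 and 3.01 FPKM against 1.28 and 0.652 FPKM. The points behind each likeness are the same 4 libraries, so it is given as a description without a p-value.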

How the data were processed

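PolyA RNA of the 4 tumors was converted to dUTP-containing TruSeq libraries and sequenced as 50-bp single-end reads. Per the submitters' processing notes, the authors aligned reads to mm10 with TopHat2 2.0.10 and Bowtie 0.12.9, estimated FPKM with Cufflinks 2.1.1, and tested HTSeq counts with DESeq2 1.6.2. The deposited tables used here hold FPKM, its interval and a status, which was OK for all 10 genes. The gene annotation and strand setting of Cufflinks are not given in the sources used here. Read depth is unknown.

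Starts in the tables count from 0, and 1 was added. Genes with 1 FPKM or more in 2 or more tumors were kept. log2(FPKM + 1) was fitted with limma 3.58.1 (lmFit, and eBayes with a trend, R 4.3.3) for the triple-mutant minus the double-mutant tumors. P-values were adjusted by Benjamini-Hochberg over the 12752 genes, with a threshold of 0.05. This replaces the count test of the study, since FPKM are not counts. Folds on this scale understate the change of low genes. The script was tested on simulated data. The 10 genes, the lists and the comparisons were chosen with earlier results of these data known, and 1 gene of the lists is not reported here. Named genes were all 10 members, up to 4 non-overlapping genes per list by size of difference, up to 4 tested neighbours per gene by distance within 500 kb, and the 3 most similar profiles of the 3 widest-ranging genes. Alternatives were another pseudocount, other filters, scalings and variance models, interval midpoints and leaving out each tumor. Tables were joined and figures drawn in Python 3.11.15 (numpy 2.4.6, pandas 2.3.3, matplotlib 3.10.9).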

Additional observations from a re-analysis of the deposited data

How the results depend on the processing

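Irx4, Tbx2, Tbx3, Msx1 and Msx2 had positive log2 differences in all settings in which they were tested. The pseudocount of 0.1 and the interval midpoints moved Irx4 to 7.02 and 3.67 and Msx1 to 2.35 and 0.93, and the pseudocount moved Msx2 to 3.03 and Tbx3 to 3.32. With 1 tumor left out in turn the differences ran from 3.80 to 4.58 for Irx4, 2.90 to 4.74 for Tbx2, 1.07 to 3.24 for Tbx3, 0.95 to 1.64 for Msx1 and 1.23 to 1.95 for Msx2. The sign turned for Irx1 (−0.22 to 0.96), Irx2 (−0.66 to 0.56), Irx3 (−0.78 to 1.12), Irx5 (−1.12 to 0.065) and Pthlh (−0.97 to 1.96) when 1 tumor was left out, and for Irx2 with interval midpoints (0.035). Of the 5 genes without overlap, 2 were left with a filter of 5 FPKM, because Tbx3, Msx1 and Msx2 were then not tested. With 1 tumor left out 6 to 8 genes did not overlap, which is easier to reach with 3 tumors. The 0 genes past the adjusted p became 6 with quantile normalization, 5 without the trend and 1 with interval midpoints, and the causes were not tested. The median log2 difference of all tested genes was −0.02 and stayed between −0.05 and 0.03 under the other scalings and midpoints. No paired analysis was possible because which tumors share a litter is not given. With 2 tumors per genotype and unknown depth, differences within the spread of the tumors could not be resolved.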
